A study of Canis lupus familiaris with 40 samples.

Results

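In PMN-MDSCs, the granulocytic subset of myeloid-derived suppressor cells (MDSCs), 37 genes had a median level well above that of neutrophils from healthy and from tumor-bearing dogs, without being higher in healthy monocytes than in healthy neutrophils. These genes were picked from the 24580 dog gene IDs in the files by their CPM, the reads of a gene scaled to the total counted in that library. A member had a mean of at least 2 CPM in healthy neutrophils, a PMN-MDSC median of at least 20 CPM and of at least 4 times the healthy neutrophil mean, and a median in the neutrophils of tumor-bearing dogs under 2 times that mean. Its mean in healthy monocytes was no higher than in healthy neutrophils and, where the neutrophil mean was at least 20 CPM, was over 1/20 of it. Genes reaching 20000 CPM in any library were left out. Of 221 genes that met the limits on healthy neutrophils and PMN-MDSCs, 182 also met the limit on neutrophils of tumor-bearing dogs, and 37 of these met the limits on monocytes.

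RNA was sequenced from blood cells of pet dogs in 40 libraries of 6 sorted populations. PMN-MDSCs (9 libraries) and M-MDSCs (5) came from the mononuclear layer of a density gradient in tumor-bearing dogs, both CD11b+ and negative for MHC class II, CD5 and CD21, the former CADO48A+CD14- and the latter CD14+CADO48A-. C PMNs (10, tumor-bearing) and H PMNs (5, healthy) were CADO48A+ neutrophils from the pellet under that layer, sorted after red cell lysis. C MONOs (8, tumor-bearing) and H MONOs (3, healthy) were CD14+ monocytes that did carry MHC class II. No PMN-MDSCs of healthy dogs were analysed here, and density layer, handling and subset cannot be told apart between PMN-MDSCs and either PMN population. The study compares PMN-MDSCs with PMNs of one and the same patient, so these populations share dogs at least in part, but the labels give neither the tumor nor the dog behind a library, and the tests treat libraries as independent. The design text of the series counts 1 PMN-MDSC and 1 C PMN sample fewer than the labels do, without naming them, and all labelled libraries were used. Library names begin with GAR4079 or PAT4694, called series here, and every library of healthy dogs is in series GAR4079.

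MDSCs are myeloid cells that accumulate in cancer and chronic inflammation and restrain T cells. In the study only the CADO48A+ subset was tested for suppression of T cells, and the M-MDSCs are called putative. The granulocytic subset sediments with mononuclear cells, unlike most mature neutrophils, and holds immature as well as activated cells. Neutrophils make the proteins of their granules in successive waves as they mature in the bone marrow, and many of these transcripts are scarce in mature blood neutrophils. The files pair no gene ID with a name, and 0 of the 24580 IDs had a symbol in the reference table used here, so the role of each of the 37 genes is not given, and lists of granule, cell cycle or cell type genes could not be applied.

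Counts on genes ranged from 4229857 to 60473238 per library. A C PMN library (replicate 7, 4229857) and a PMN-MDSC library (replicate 9, 6299310) were the only ones under 10000000. A level of 10 counts was reached by 3470 genes in the former, by 3959 in the latter and by 9480 to 12466 in each of the remaining libraries. The lineage of the PMN-MDSC libraries was checked with 50 genes restricted to H PMNs and 50 restricted to H MONOs. Both lists were picked from the healthy libraries alone and held 0 of the 37 genes. The PMN genes summed to 68528 to 402814 CPM in PMN-MDSCs, the highest in replicate 9. They summed to 55673 to 78396 CPM in H PMNs, 48584 to 279496 CPM in C PMNs and 2776 to 4865 CPM in M-MDSCs. The PMN-MDSC and C PMN ranges overlap, so this sum cannot tell a PMN-MDSC library from a C PMN library.

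Across the 37 genes, the PMN-MDSC median ranged from 20.1 to 10969 CPM and the H PMN mean from 2.23 to 178 CPM. The median over the genes of the ratio between them was 7.07, with quartiles of 4.94 and 10.4. Over the C PMN median, the PMN-MDSC median was 3.33 to 354 times higher, with a median of 5.58. Both ratios follow from the way the genes were picked and are a description. In C PMNs, 14 of the 37 genes had a median at or under the H PMN mean. At the limits, the 3 genes just inside lay at 4.08, 4.08 and 4.10 times the H PMN mean, and the nearest genes outside at 3.95, 3.88 and 3.82. On the limit for C PMNs, the nearest inside were at 1.945, 1.924 and 1.868 times the H PMN mean and the nearest outside at 2.0005, 2.54 and 4.36.

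The genes were not raised evenly over the PMN-MDSC libraries. In PMN-MDSC replicates 1, 2, 4, 5, 6 and 7, respectively, 35, 36, 37, 36, 37 and 33 of the 37 genes were at least 4 times the H PMN mean. In replicates 3, 8 and 9 the numbers were 3, 4 and 9. A median over 9 libraries needs only 5 of them to be high for each gene. These counts use the values and the limit that picked the genes and are a description. The split was not particular to the 37. Of 142 genes under the same limits but with an H MONO mean above the H PMN mean, 75.4 to 97.2% reached this level in replicates 1, 2, 4, 5, 6 and 7. In replicates 3, 8 and 9 it was 4.23 to 33.1%. The low libraries stood in both series, with replicate 3 in GAR4079 and replicates 8 and 9 in PAT4694. Replicates 3 and 8 had 43296791 and 26160902 counts, so that low depth was a property of replicate 9 and not of these. In C PMNs between 0 and 7 genes reached the same level (median 1), in H PMNs and M-MDSCs 0 in every library, and in C MONOs 0 or 1. C PMN replicates 1, 10 and 6 had 7, 5 and 4 such genes, more than PMN-MDSC replicate 3.

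**Figure D1:**
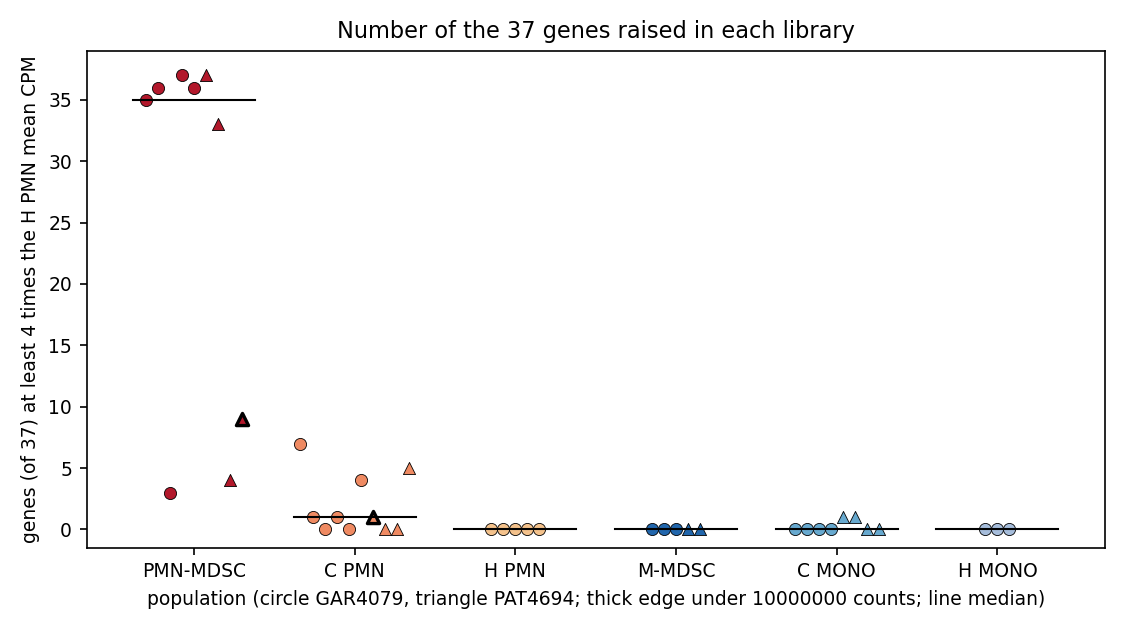
Number of the 37 genes (vertical axis) at least 4 times the H PMN mean CPM in each library, by population; circles are libraries of series GAR4079, triangles those of PAT4694, thick edges mark the libraries under 10000000 counts and lines the medians. Among the PMN-MDSC libraries 6 lie between 33 and 37 and 3 between 3 and 9, and the C PMN libraries lie between 0 and 7.

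**Figure D2:**
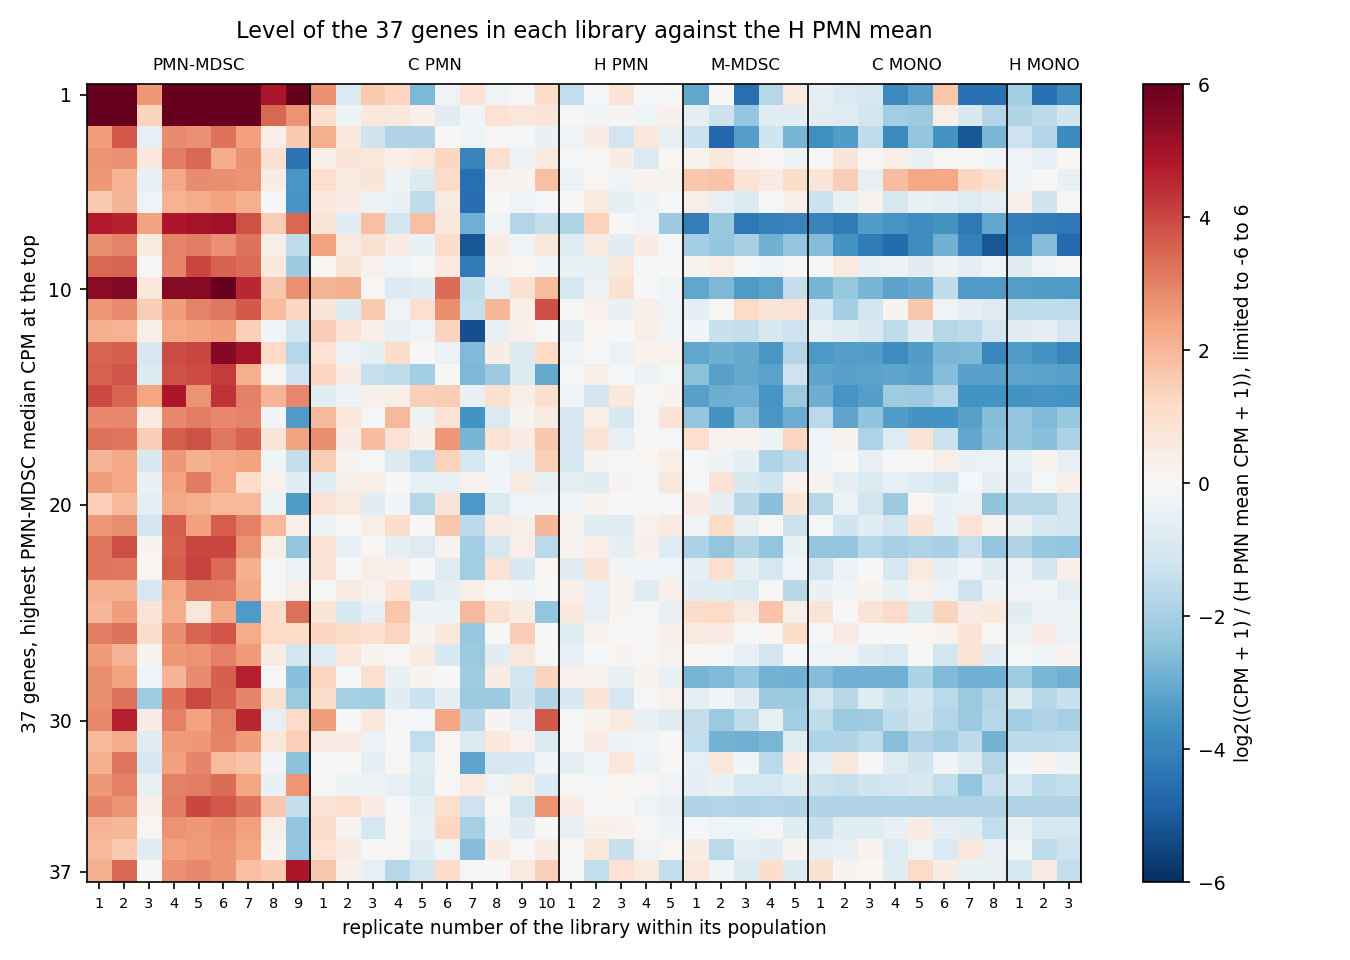
Each row is 1 of the 37 genes, ordered by PMN-MDSC median CPM with the highest at the top, and each column a library; color gives log2((CPM + 1) / (H PMN mean CPM + 1)), red above and blue below the H PMN mean. Replicates 1, 2, 4, 5, 6 and 7 of the PMN-MDSCs are red in nearly all rows, and rows that are blue across M-MDSCs, C MONOs and H MONOs are genes scarce in monocytes.

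Over the 9 PMN-MDSC libraries the levels of the genes varied together. The median Spearman correlation between pairs of the 37 was 0.73, and 95.8% of the pairs were above 0. Over all 3847 genes at the same minimum levels in H PMNs and PMN-MDSCs the median was 0.22, with 67.2% above 0. Without the library of lowest depth the values were 0.69 and 98.5% for the 37 genes and 0.02 and 50.4% for all. In the 10 C PMN libraries the median was 0.26 for the 37 genes and 0.26 for all. The pairs share their libraries and the PMN-MDSC median helped to pick the genes, so these correlations are given without a test.

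The gene with the highest level, ENSCAFG00000004765, had 139, 687, 2003, 7654, 10969, 11690, 11888, 13733 and 16967 CPM in the PMN-MDSC libraries. In C PMNs it ranged from 2.60 to 152 CPM (median 31.0), and in H PMNs it was at 7.22, 20.4, 21.1, 21.5 and 39.5 CPM. PMN-MDSC replicate 3, at 139 CPM, was thus under the highest C PMN library, and the other 8 PMN-MDSC libraries were above all C PMN and H PMN libraries. In M-MDSCs it had 0, 1.63, 5.95, 22.7 and 33.6 CPM, and in C MONOs 0.0367 to 71.1 CPM (median 6.13). On the TPM scale, in which counts are also divided by gene length, its median of 7530 TPM ranked 15 of 24580 genes in PMN-MDSCs, against ranks of 3245 in C PMNs, 3720 in H PMNs and 7731 in C MONOs. It took a median of 56.0% of all counts on the 37 genes in PMN-MDSC libraries (10.2 to 60.03%) and 2.08% in C PMN libraries (0.320 to 11.99%).

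ENSCAFG00000008324, the next by PMN-MDSC median, had 17.5, 46.04, 79.8, 862, 1041, 1105, 1130, 1903 and 2002 CPM there. The C PMN libraries lay between 3.71 and 13.8 CPM (median 10.5) and the H PMN libraries at 5.24, 5.53, 5.74, 7.14 and 8.24 CPM. No PMN-MDSC library overlapped with any PMN library, although the lowest, replicate 3 at 17.5 CPM, was close to the highest C PMN library at 13.8 CPM. In the MONO populations its medians were 3.74 CPM in M-MDSCs, 2.61 CPM in C MONOs and 1.51 CPM in H MONOs. Its rank by median TPM was 413 in PMN-MDSCs and 6274 in C PMNs.

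**Figure D3:**
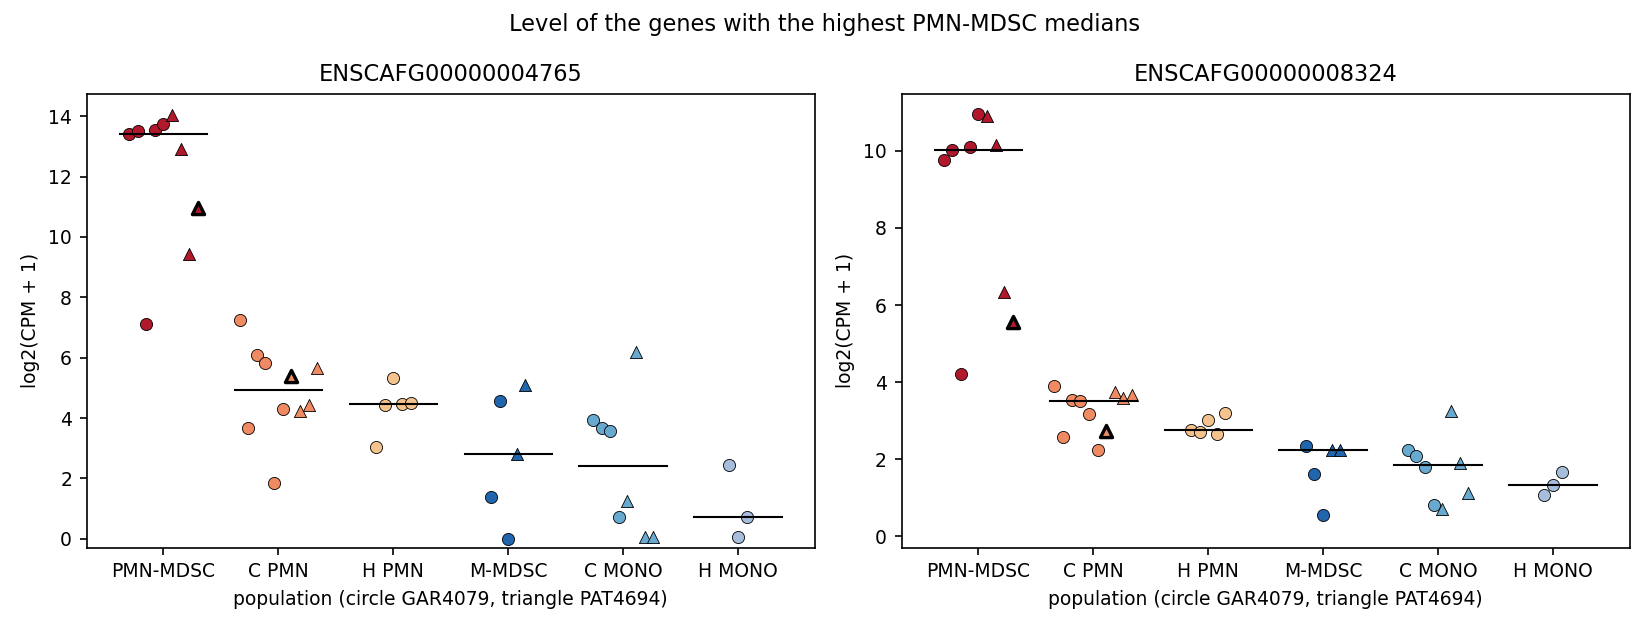
Level in log2(CPM + 1) of the genes with the highest PMN-MDSC medians, 1 panel per gene, in each library by population; circles are series GAR4079, triangles PAT4694 and lines medians. In both panels 6 PMN-MDSC libraries form a high group with the remaining 3 below it, the lowest at 139 CPM for ENSCAFG00000004765, inside the C PMN range, and at 17.5 CPM for ENSCAFG00000008324, above it.

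For 2 of the 37 genes, all PMN-MDSC libraries were above all C PMN libraries, among 0.156% of the 3847 genes at the same minimum levels. As the contrast was used for picking, nothing is read from this count. Beside ENSCAFG00000008324 this was ENSCAFG00000028626, named after its values had been seen, at 48.7 to 350.4 CPM in PMN-MDSCs (median 95.8) and 6.43 to 32.1 CPM in C PMNs (median 14.3). Its replicates 3, 8 and 9, low for most of the 37 genes, had 60.5, 48.7 and 88.7 CPM, and the last of these was above replicate 5 at 78.1 CPM. In monocytes it was near 0, with C MONO libraries between 0 and 2.61 CPM.

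By their level in healthy monocytes the genes were of several kinds. In 11 of the 37 the H MONO mean was under 1/10 of the H PMN mean, in 16 it was at least 1/2 of it, and 10 lay between. The PMN-MDSC median over the C PMN median was 14.5 in the first kind (4.88 to 354), 5.16 in the second (3.73 to 10.4) and 5.80 in those between (3.33 to 99.5). Over the 37 genes, the Spearman correlation between the H MONO to H PMN ratio and the PMN-MDSC to C PMN ratio was -0.51. Both ratios are built from the 4 values that picked the genes, whose limits shape this relation, and genes are not independent, so it is a description only. The first kind had a median of 0.402 CPM over its C MONO medians and 0.365 CPM over its M-MDSC medians, and the second 7.80 and 9.16 CPM.

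PMN-MDSCs had the highest median of the 6 populations for all 37 genes. The genes were picked for a high PMN-MDSC median and a bounded H MONO mean, so this order and the following ratios are a description, although C MONO and M-MDSC values themselves were not used. In the 36 genes with a C MONO median above 0, the PMN-MDSC median was 14.8 times higher in the median over genes, with a lowest ratio of 1.91. Over the M-MDSC median the corresponding values were 10.4 and 1.86, again for 36 genes. Of the 37, 11 genes were under 1 CPM in the median of C MONOs and 11 in that of M-MDSCs. In TPM the PMN-MDSC medians of the genes ranged from 5.58 to 7530 (median 63.1). The length behind the TPM values, taken from the ratio of CPM to TPM and set against the median of well-counted genes, was 1.365 in the median of the 37 genes and 1.915 in that of the 3847.

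The monocyte-restricted genes moved with the same libraries. Their sum was 8766, 7637, 10667, 9695, 12317 and 6734 CPM in PMN-MDSC replicates 1, 2, 4, 5, 6 and 7, and 596, 2378 and 3804 CPM in replicates 3, 8 and 9. In C PMNs it ranged from 270.3 to 3505 CPM, in H PMNs from 365 to 775 CPM, and in C MONOs from 95673 to 130494 CPM. The PMN-MDSC sort was gated on CD14- cells negative for MHC class II, and the labels do not give its purity. A larger number of cells expressing these genes and more of their RNA per cell cannot be told apart in bulk RNA. All 37 genes had a lower median in C MONOs than in PMN-MDSCs, and 142 other genes that met the same limits but had an H MONO mean above the H PMN mean were raised in the same libraries. Of those 142, 75.4 to 97.2% were at least 4 times the H PMN mean in the 6 high PMN-MDSC libraries. In the other 3 the share was 4.23 to 33.1%. In M-MDSCs it was 54.2 to 65.5% for the 142 and 0% for the 37 genes. The limit on the H MONO mean that separates these sets favors such a difference in M-MDSCs, so nothing is read from it. The part of monocyte RNA in the levels of the 37 genes was not tested.

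**Figure D4:**
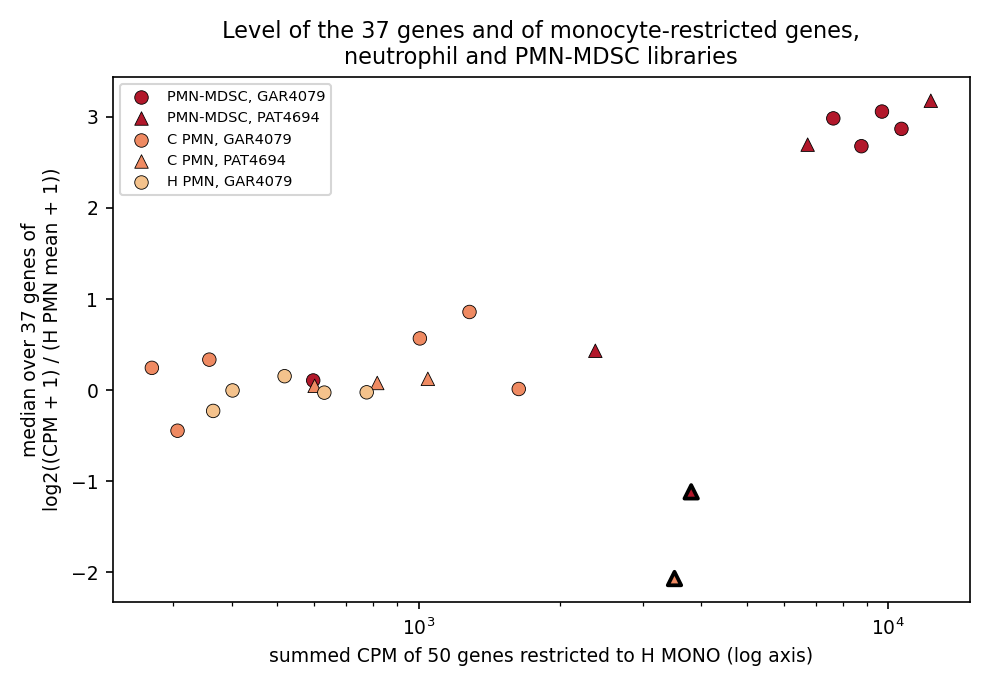
Median over the 37 genes of log2((CPM + 1) / (H PMN mean + 1)) against the summed CPM of 50 monocyte-restricted genes (log axis) for each PMN-MDSC, C PMN and H PMN library; triangles are series PAT4694 and thick edges mark libraries under 10000000 counts. The PMN-MDSC libraries with 6734 CPM or more of monocyte-restricted genes are those with medians of 2.68 to 3.18, and the other 3 have medians of -1.12 to 0.43.

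Whether the genes differed in the putative monocytic MDSC subset was asked by comparing M-MDSCs with C MONOs, neither of which was used for picking. Fitted with edgeR's quasi-likelihood test over 11874 genes, 0 of the 34 genes that passed the filter on low counts had an adjusted p at or under 0.05, where 0.758% of all genes were called and 0.505% were called higher in M-MDSCs. At an unadjusted p under 0.05, 2 of the 34 were higher in M-MDSCs and 0 lower, with 13.7% of all genes at that level in either direction and 7.34% higher. The median log2 fold change of the 34 was 0.35, with 24 above 0, against -0.0031 and 49.7% over all genes. The other 3 genes had medians of 0 to 0.125 CPM in M-MDSCs and 0 to 0.0113 CPM in C MONOs. DESeq2's Wald test called 508 genes, 4.28% of all (2.34% higher in M-MDSCs), and 1 of the 34 tested.

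That gene was ENSCAFG00000008693, named after the call had been seen. It was at 8.24, 12.2, 12.4, 15.6 and 16.2 CPM in M-MDSCs and between 0.921 and 10.1 CPM in C MONOs (median 3.50), so that 1 C MONO library overlapped with the M-MDSC libraries. Its log2 fold change was 1.59 with a standard error of 0.48 (adjusted p = 0.133 from edgeR, 0.0298 from DESeq2). Its PMN-MDSC libraries ranged from 22.1 to 636 CPM (median 469) and its H PMN libraries from 38.6 to 97.6 CPM. The PMN-restricted genes also differed between these populations, at 2776 to 4865 CPM in M-MDSCs and 300.6 to 2019 CPM in C MONOs, and their part in the fold changes was not tested.

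To measure genes in libraries whose values did not enter their picking, the same limits were applied to series GAR4079 alone. The limits themselves were chosen with earlier results of these data known, and the labels do not show whether the series share dogs. PAT4694 is thus not a fully independent set. In GAR4079 the limits gave 46 genes, 34 of them among the 37. These 46 were compared between 4 PMN-MDSC and 4 C PMN libraries of series PAT4694. The 46 genes had a median log2 fold change of 2.10 in favor of PMN-MDSCs, and 45 of the 46 were above 0, against -0.0069 and 49.6% over all 9666 genes tested. In edgeR's quasi-likelihood test, 0 of the 46 and 0 of all genes (0%) had an adjusted p at or under 0.05. At an unadjusted p under 0.05, 18 of the 46 were higher and 0 lower, with 6.19% of all genes at that level and 5.25% higher. This count moved with single libraries, to 11 without PMN-MDSC replicate 6, 12 without replicate 7 and 28 without replicate 9, and to 31 when PMN-MDSC replicate 9 and C PMN replicate 7 were both left out, which was tried after seeing the data. DESeq2 called 6 of the 46, each higher in PMN-MDSCs, and 1.01% of all genes (0.941% higher). Without the filter on low counts, edgeR called 7 of the 46, each higher, and 1.04% of 18367 genes (0.844% higher). The 46 genes share their libraries and are not independent of each other. Their counts beside the shares of all genes are therefore a description. When counts were simulated with the spread of these libraries and a set of genes changed by 4-fold, edgeR found 0% of that set. An absence of calls thus carries no weight for changes of that size, and larger changes were not simulated.

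By library, 42, 32, 5 and 7 of the 46 genes were at least 4 times the H PMN mean in PMN-MDSC replicates 6, 7, 8 and 9. In the C PMN libraries of the same series, replicates 7 to 10, the numbers were 1, 1, 1 and 5. The higher level in series PAT4694 thus rested on 2 of its 4 PMN-MDSC libraries in these counts. The 37 genes themselves were picked on medians over both series, so their values by series are a description and add nothing to the comparison of the 46. Their ratio of the PMN-MDSC to the C PMN median was above 1 for all in both series, and had a median of 5.93 in GAR4079 (2.91 to 316) and 4.94 in PAT4694 (1.64 to 156). The order of the genes by this ratio had a Spearman correlation of 0.78 between the series, again across genes picked with these libraries.

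**Figure D5:**
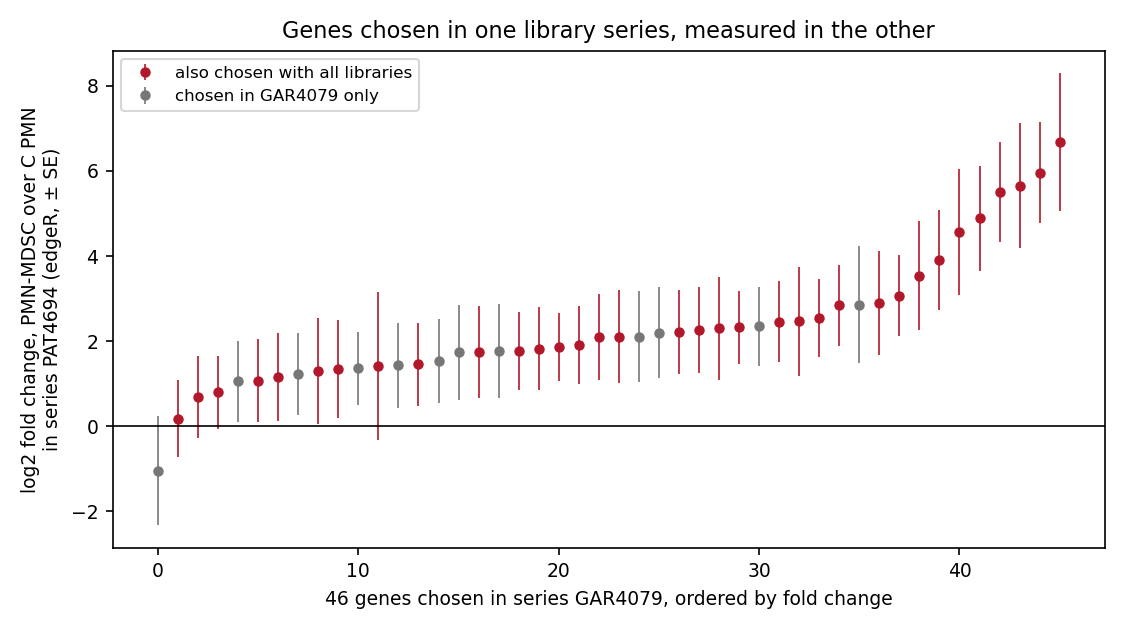
Log2 fold change of PMN-MDSC over C PMN libraries in series PAT4694, with a standard error derived from the test statistic, for the 46 genes picked in series GAR4079, ordered by fold change; red genes are also among the 37 picked with all libraries and gray genes are not. All but 1 lie above 0, the median is 2.10, and the error bars are wide.

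The PMN-MDSC libraries of the 2 series were also compared with each other. This contrast was not itself a limit, but the median that picked the 37 genes was taken over these same libraries. With 5 of them in GAR4079 and 4 in PAT4694, that median bears on the contrast, so the values for the 37 are a description. In edgeR's quasi-likelihood test 0 of the 37 genes and 0 of 10972 (0%) had an adjusted p at or under 0.05. At an unadjusted p under 0.05, 1 of the 37 was higher in PAT4694 and 0 lower, with 8.27% of all genes at that level and 6.91% higher. The median log2 fold change of the 37 was -0.18 with 16 above 0, against -0.02 and 48.9% over all genes. DESeq2 called 1.59% of all genes (1.55% higher) and 1 of the 37, ENSCAFG00000019753, named for that reason, at 93.5 CPM in replicate 9, the library of lowest depth, and 2.31 to 34.5 CPM in the other 8. Its edgeR log2 fold change was 3.32 with a standard error of 1.27 (adjusted p = 0.466), and its adjusted p from DESeq2 was 0.0490. The same simulation for this contrast also gave 0%.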

How the data were processed

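RNA from flow-sorted dog blood cells was amplified with Smart-seq2 and sequenced in 40 libraries, grouped by the sample type in their labels. The authors removed adapters with skewer, used HISAT2 for alignment to CanFam3.1 plus spike-in sequences, marked duplicates with Picard 1.92, and counted reads unique to exons of Ensembl genes with featureCounts. The deposited counts are not normalized. The deposited CPM values are these counts scaled to the total on genes and 92 spike-ins, and the deposited TPM values were divided by a length that is not stated. A second deposited copy of the CPM values was left aside.

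The 37 genes and all lists were chosen with earlier results of these data known. Levels were taken from CPM. Counts were fitted with edgeR 4.0.16 (TMM, filterByExpr, quasi-likelihood test, Benjamini-Hochberg adjustment over all genes tested, at most 0.05) and, as an alternative, with DESeq2 1.42.0, in R 4.3.3. Standard errors beside edgeR fold changes were derived as the absolute log2 fold change over the square root of the quasi-likelihood F statistic. The tests were tried on simulated counts with 200 genes changed by 4-fold, of which 73.0% were recovered for M-MDSCs against C MONOs. For each lineage, the 50 genes with the highest mean in its healthy libraries were taken, provided that this mean reached 50 CPM, was at least 50-fold that of the other lineage and showed no overlap. P-values set a difference against the spread between libraries, treated as independent although some may share a dog. Counting error covers reads, not molecules. Genes were to be named by symbol. Without symbols, up to 2 IDs of each direction were named per contrast, and others only where a small count turned on them.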

Additional observations from a re-analysis of the deposited data

Results flagged for a closer look

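Within populations of 4 to 10 libraries, 11 measures (5 named genes on log2(CPM + 1) and 6 values per library) were searched for a library far from the others by Dixon's test at 95%. Of 53 sets of values 5 were flagged, and chance gives about 1 in 20. All 5 came from the libraries of lowest depth. In PMN-MDSC replicate 9 the 50 PMN-restricted genes summed to 402814 CPM, above the other PMN-MDSC libraries. C PMN replicate 7 had the highest sums of PMN-restricted genes (279496 CPM) and of monocyte-restricted genes (3505 CPM) among C PMNs. It also had the lowest median of the 37 genes over H PMNs (-2.07 in log2) and the lowest level of ENSCAFG00000008693 (0.946 CPM) of that population.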

How the results depend on the processing

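With 8 times the H PMN mean as the limit in place of 4 times, 17 genes were left. Other scales and averages gave 43 genes with TMM factors (26 of the 37 kept), 36 with TPM (23 kept) and 32 with means in place of medians (29 kept), and 39 without the libraries under 10000000 counts (33 kept). After leaving out single libraries, 30 to 42 genes met the limits and 29 to 37 of the 37 were kept. DESeq2 called 1 gene for M-MDSCs against C MONOs and 1 between the series, where edgeR called 0. For the genes picked in GAR4079 and measured in PAT4694, DESeq2 called 6 and edgeR without a filter on low counts 7, where edgeR with the filter called 0. The cause was not tested. Between the series, with DESeq2's scaling, the median log2 fold change was 0.11 over all genes and -0.07 over the 37. Leaving out each library in turn left each of these edgeR counts at 0. The median log2 fold changes then ranged from 0.27 to 0.45 for M-MDSCs against C MONOs, from -0.50 to 0.14 between the series and from 1.75 to 2.32 for the genes picked in GAR4079. The median log2 ratio of PMN-MDSCs over C PMNs was 2.48 and ranged from 2.45 to 2.68. Leaving out both libraries of lowest depth from PAT4694, a setting added after the data had been seen, gave 0 calls and a median of 2.07. Depth limits the statements on PMN-MDSC replicate 9 and C PMN replicate 7. No paired analysis was possible because the labels give no replicate number or dog, and numbers here only name libraries.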
